A study of Mus musculus with 6 samples.

Results

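The 10 genes described here are the transcription factor Nrf2 (Nfe2l2), its inhibitor Keap1, and 8 antioxidant or detoxifying enzymes and transporters that Nrf2 is known to induce, heme oxygenase 1 (Hmox1) among them. They were taken by gene symbol from a table of 14515 genes covering 6 RNA-seq libraries from muscle stem cells of the mouse, and all 10 were listed and tested. The libraries fall into 3 groups of 2. The wt group is labelled wild type, the mdx group carries the dystrophin mutation of the mdx mouse, a model of Duchenne muscular dystrophy, and the mdx/Ripk3mKO group carries mdx together with a change of the necroptosis kinase gene Ripk3 written as mKO, which the labels do not spell out. The age and sex of the animals, and how the Ripk3 change was made, are not given in the sources used here. The sample labels describe resting satellite cells sorted from muscle, with 10000 to 20000 cells per library, whereas the text of the series speaks of wild-type cells in an activated state, collected after 72 hours in a well below a transwell insert that held cells of each genotype. If that text applies, the genotypes belong to the cells in the insert, so the groups are named by their labels only. The series title concerns suppression of necroptosis in dystrophic muscle, and the comparisons below ask whether the Nrf2 pathway differed between the labelled groups. The sources used here do not say that libraries of 1 group are separate animals or cultures. The p-values therefore rest on a library-to-library spread that may be technical.

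Nrf2 is a basic leucine zipper factor that Keap1 holds in the cytoplasm and hands to a Cul3 ubiquitin ligase for degradation. Oxidants and electrophiles modify cysteines of Keap1, Nrf2 then accumulates, pairs with small Maf proteins and binds antioxidant response elements near genes for glutathione synthesis, thioredoxin reduction, quinone reduction and heme breakdown. This control acts mainly on Nrf2 protein, which RNA counts do not measure. Hmox1 differs from the other targets in that the heme-sensitive repressor Bach1 strongly holds it down. In muscle, heme oxygenase and glutathione enzymes respond to oxidative stress and to heme set free from myoglobin or blood.

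Promoter sequence was available from RefSeq (GRCm38.p6) for 7 of the 10 genes in 9 windows, each from 250 bases before to 50 bases after a transcription start. Hmox1, Gclc and Gsr had no entry in the table used. The core antioxidant response element was searched as TGACNNNGC on both strands. It was found in 4 of the 9 windows, those of Nfe2l2, Srxn1, Gclm and 1 of the 3 of Txnrd1, and in 12.4% of all 32851 windows. A second search, chosen after the sequences had been seen, was for TGACTCA, the element of AP-1, which is also the core of a longer Maf recognition element. It was found in the Srxn1 window alone among the 9, at 2 places, and in 5.2% of all windows. The 250 bases before the start are shown for Srxn1 and Nfe2l2, the genes with a window whose groups did not overlap in at least 1 comparison below. Capitals mark the matches, read on the gene's strand, so TGAGTCA in the Srxn1 sequence is TGACTCA on the other strand. The Srxn1 stretch is chr2:152105274-152105523 on the plus strand, and the Nfe2l2 stretch is chr2:75704664-75704913 on the minus strand.
Srxn1: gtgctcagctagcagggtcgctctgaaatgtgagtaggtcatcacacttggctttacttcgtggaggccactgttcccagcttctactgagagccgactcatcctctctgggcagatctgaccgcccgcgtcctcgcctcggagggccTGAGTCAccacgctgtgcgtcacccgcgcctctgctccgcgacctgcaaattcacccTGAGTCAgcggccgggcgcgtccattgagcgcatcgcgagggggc
Nfe2l2: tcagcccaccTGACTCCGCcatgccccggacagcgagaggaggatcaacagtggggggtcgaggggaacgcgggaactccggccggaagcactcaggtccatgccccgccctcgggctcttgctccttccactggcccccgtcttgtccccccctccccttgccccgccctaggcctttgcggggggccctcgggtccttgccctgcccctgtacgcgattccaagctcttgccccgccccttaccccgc
The Srxn1 matches began 102 and 45 bases before the start, and its TGACNNNGC match, TGACCTAGC on the other strand, lay 28 bases after it. The Nfe2l2 match, TGACTCCGC, began 240 bases before the start. The matches of Gclm (TGACGGTGC at chr3:122245423-122245431) and Txnrd1 (TGACAAAGC at chr10:82859114-82859122) were both on the other strand. A match describes letters in a window and shows no binding.

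The values are scaled counts, that is gene-level read counts brought to a common library scale and then rounded, with library totals of 20611974 to 21037153. The reads behind them were estimated from gaps and doublings in the whole numbers at 17994044 to 19663823 for the wt and mdx libraries and 25025783 to 25349769 for the mdx/Ripk3mKO libraries, so depth and label go together for the last group. Both mdx columns carry the same header and are called library 1 and 2 in column order. Markers of dividing and differentiating muscle cells were high in every library, against the sample label of resting cells: Myog lay at 1300 to 1700 CPM (scaled counts relative to the library total), Mki67 at 660 to 820, and the satellite cell factor Pax7 at 84.6 to 103. Satellite cell and myoblast markers (11 of 13 listed) summed to 5600 to 6070 CPM in wt. Their sums were 5440 to 5800 in mdx and 5920 to 6150 in mdx/Ripk3mKO. Of the 10 tested, 5 were higher and 5 lower in mdx/Ripk3mKO than in mdx. None was called (smallest limma adjusted p = 0.0528), where 0.206% of tested genes were. Myod1 stood at 23226 and 21120 scaled counts (wt), 19459 and 18636 (mdx) and 22696 and 23595 (mdx/Ripk3mKO). Both mdx libraries were the lowest for Myod1, whereas Pax7 was lowest in mdx/Ripk3mKO, at 1805 and 1755 against 1811 and 2119 in mdx. In mdx against wt, 6 of the 10 markers were higher and 4 lower. The share of tested genes with both mdx libraries lowest was not counted. The part of muscle cell state in the results below was not tested. Ripk3, the gene named in the third genotype, stood at 45 and 32 scaled counts (wt), 23 and 36 (mdx) and 17 and 33 (mdx/Ripk3mKO), with overlap, and so does not check the labels. Library 1 labelled mdx/Ripk3mKO stood apart with 6918 scaled counts of the X-inactivation RNA Xist against 164 to 666 in the others. The Y-chromosome gene Ddx3y stood at 373 in the same library against 1543 to 1785 in the others. The 2 mdx/Ripk3mKO libraries thus differed in sex-linked RNA, so their pair may be mixed in sex. Macrophages, which make much Hmox1, left little trace. Of 16 macrophage markers 5 were listed, with summed levels of 2.89 to 3.77 CPM in wt, 2.95 to 3.69 in mdx and 3.04 to 3.52 in mdx/Ripk3mKO. The sum hides opposite directions. Of the 4 tested, 2 were higher and 2 lower in mdx/Ripk3mKO than in mdx (-1.17 to 0.72). None was called and 1 had an unadjusted limma p under 0.05, against 0.206% and 11.6% of tested genes. Cd68 (15 and 19 scaled counts) and Cd14 (8 and 8) were lowest in the mdx libraries. The defining Ptprc, Adgre1, Csf1r and C1qa were not listed, nor was any of 10 erythroid markers. Endothelial markers (6 of 10 listed) summed to 4.38 to 4.40 CPM in wt, 4.22 to 5.52 in mdx and 3.61 to 3.76 in mdx/Ripk3mKO, which lay below both other groups. The 4 endothelial markers tested had a median of -0.24 in mdx/Ripk3mKO against mdx, with 4 of 4 lower and none called (0 at an unadjusted limma p under 0.05). In that comparison 0.206% of tested genes were called and 11.6% had an unadjusted limma p under 0.05. Fibro-adipogenic markers (4 of 10 listed) summed to 187 to 190 CPM in wt, 188 to 204 in mdx and 181 to 252 in mdx/Ripk3mKO. The part of such cells in the results below was not tested. In bulk RNA, fewer cells of a type and less RNA per cell cannot be told apart.

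In CPM per kilobase of annotated exon, Hmox1 was the most abundant of the 10 genes, at 126 ± 12.4 (SD over the 6 libraries), above 98.0% of tested genes. Thioredoxin reductase Txnrd1 followed at 63.1 ± 2.55 and glutathione reductase Gsr at 41.6 ± 1.92. Gclc at 36.4 ± 2.03 and Nfe2l2 at 36.3 ± 0.996 could not be ordered beyond their spread, and the ranges of Gsr and Gclc over the 6 libraries also overlapped. Srxn1 stood at 21.3 ± 1.28, Gclm at 16.0 ± 1.06, Nqo1 at 7.97 ± 1.22 and Keap1 at 5.53 ± 0.127. The lowest was the cystine transporter Slc7a11 at 1.15 ± 0.124, above 25.6% of tested genes. All other neighbours in this order had separate ranges. Exon length here sums all annotated exons of a gene, so a gene with long exons that are rarely used is understated.

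The sensor and the factor were the steadiest of the 10 genes. Nfe2l2 (chromosome 2, 75675513 to 75704641) stood at 2893 and 2903 scaled counts (wt), 2970 and 2894 (mdx) and 2797 and 2766 (mdx/Ripk3mKO). The mdx/Ripk3mKO libraries were the lowest and overlapped neither other group, but their distance from mdx was small, at -0.08 ± 0.05 (log2 difference with its moderated standard error, 95% interval -0.19 to 0.04, limma, adjusted p = 0.62). Against wt it was -0.06 ± 0.05 (limma, adjusted p = 1). Keap1 (chromosome 9, 21229730 to 21239361) stood at 561 and 530 (wt), 545 and 531 (mdx) and 531 and 540 (mdx/Ripk3mKO). The groups overlapped throughout, and the highest library was 1.06 times the lowest. The 95% intervals of the Keap1 difference were -0.19 to 0.15 for mdx against wt and -0.17 to 0.16 for mdx/Ripk3mKO against mdx. Keap1 shares 510 exon bases with the antisense RNA Gm16754, which was at 7 to 16 scaled counts, and the sources used here do not state whether counting was stranded.

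Hmox1, which opens the heme ring to release iron, carbon monoxide and biliverdin, was the gene of the 10 that passed a test. It lies on mm10 chromosome 8, 75093621 to 75100589 (ENSMUSG00000005413). Its scaled counts were 4556 and 4565 (wt), 3931 and 4240 (mdx) and 5120 and 5041 (mdx/Ripk3mKO). Both mdx libraries lay below both wt libraries, and both mdx/Ripk3mKO libraries above them, an order without overlap that 2.57% of tested genes showed and no other of the 10 genes. Hmox1 was higher in mdx/Ripk3mKO than in mdx by 0.32 ± 0.05 on the log2 scale, or 1.24-fold (95% interval 1.15 to 1.35, limma with Benjamini-Hochberg adjustment over 14077 genes, adjusted p = 0.0291, n = 2 and 2). Ranked by p it was number 16 of the tested genes. In this comparison 0.206% of tested genes were called, 0.0852% higher and 0.121% lower, against 1 higher and 0 lower of the 10. Against wt, mdx stood at -0.16 ± 0.05 (limma, adjusted p = 0.586) and mdx/Ripk3mKO at 0.16 ± 0.05 (limma, adjusted p = 1). These comparisons share libraries, and the larger step spans both.

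**Figure D1:**
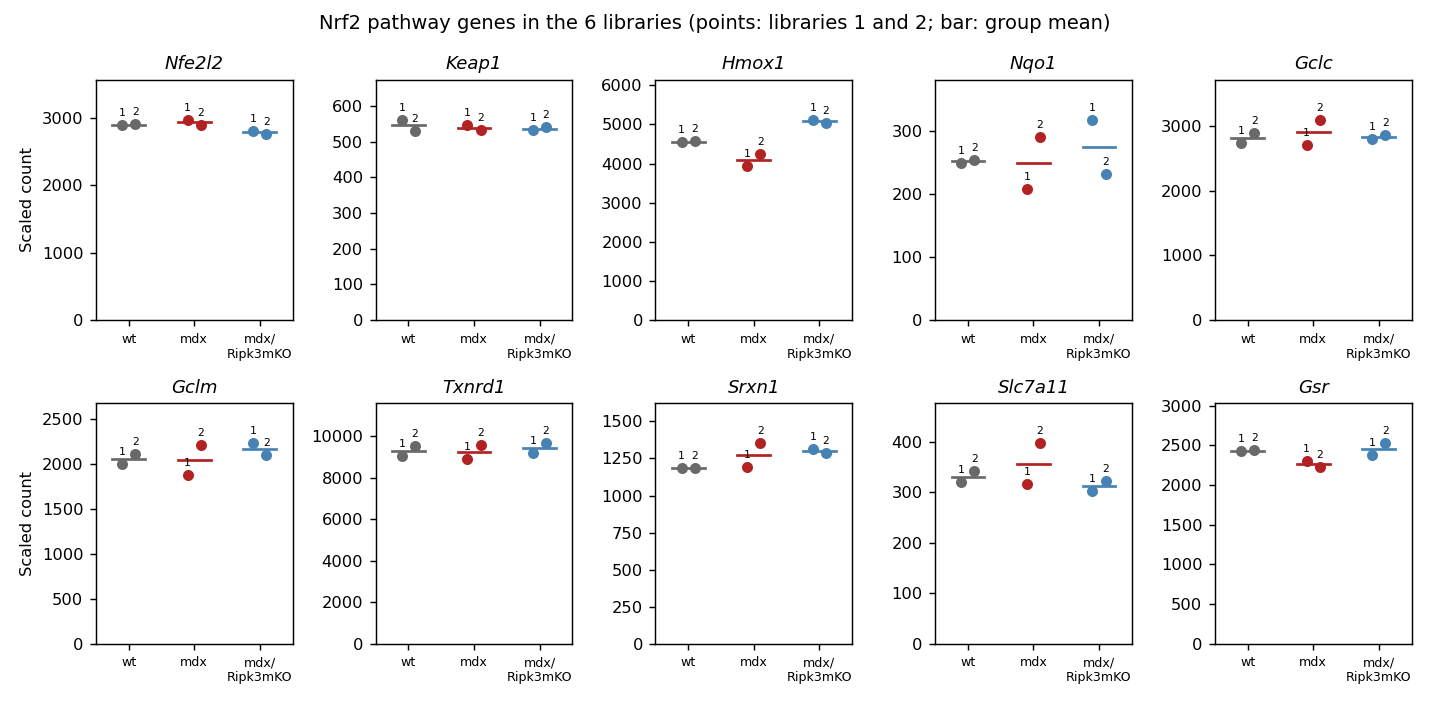
Scaled counts (y axis, from 0) of the 10 genes in each library, by labelled group (x axis); points 1 and 2 are the libraries and bars the group means. Hmox1 separates the 3 groups in the order mdx, wt, mdx/Ripk3mKO, while Nqo1, Gclc, Gclm and Slc7a11 are spread widest between the 2 mdx libraries or, for Nqo1, also between the mdx/Ripk3mKO libraries.

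The Hmox1 call rested on the pooled spread. The wt libraries enter the mdx/Ripk3mKO minus mdx difference only through that spread, and leaving out any library also costs a residual degree of freedom. Most fits without 1 library lost the Hmox1 call. Without mdx/Ripk3mKO library 1, the library with high Xist, it was at 0.30 (adjusted p = 0.0282). The call was lost without wt library 1 or 2 (0.32 in both fits, adjusted p = 0.186 and 0.185), without mdx library 1 (0.26, adjusted p = 0.188) or 2 (0.37, adjusted p = 0.0843), and without mdx/Ripk3mKO library 2 (0.33, adjusted p = 0.0763). Quantile normalization gave 0.29 (adjusted p = 0.053). Across 14066 genes, which are not independent, the mdx/Ripk3mKO minus mdx difference rose with transcript GC content at a Spearman rho of 0.30. That of Hmox1 is 53.3% GC, against a median of 49.5% over tested genes. With GC content and exon length regressed out the Hmox1 difference was 0.28 (adjusted p = 0.0792), and its adjusted p ran from 0.0232 to 0.463 over all alternatives. The difference itself stayed between 0.26 and 0.37 in all of them. The part that GC content, or the greater estimated depth of the mdx/Ripk3mKO libraries, has in this difference was not tested further.

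**Figure D2:**
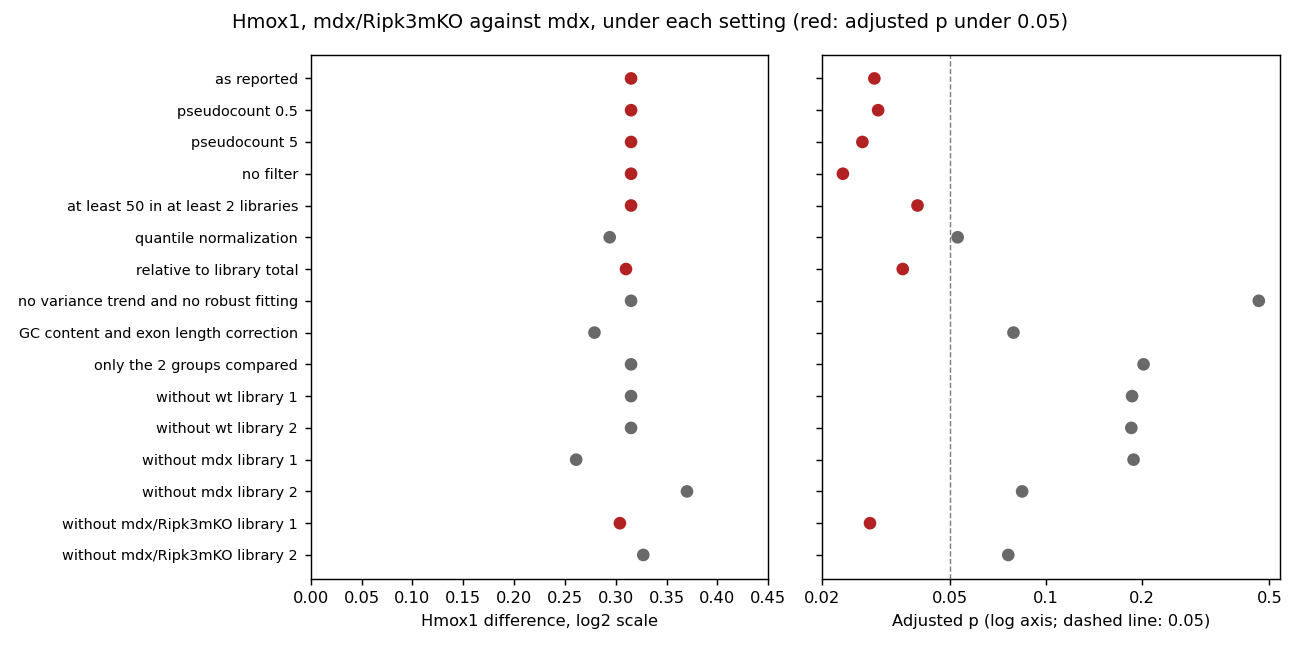
Hmox1 in mdx/Ripk3mKO minus mdx under each setting (rows): the log2 difference (left) and its adjusted p on a log axis (right), with red points under 0.05. The difference lies between 0.26 and 0.37 in every row, whereas the adjusted p crosses the dashed line at 0.05.

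Glutathione genes did not change past the threshold. Gclc, the catalytic subunit of the ligase that starts glutathione synthesis, stood at 2742 and 2886 scaled counts (wt), 2708 and 3097 (mdx) and 2794 and 2867 (mdx/Ripk3mKO). Its regulatory subunit Gclm stood at 2000 and 2116 (wt), 1879 and 2216 (mdx) and 2230 and 2100 (mdx/Ripk3mKO). For both subunits the 2 mdx libraries spanned all wt libraries. The differences between mdx/Ripk3mKO and mdx were -0.03 ± 0.06 for Gclc (95% interval -0.17 to 0.11) and 0.08 ± 0.07 for Gclm (-0.07 to 0.24). Gclm shares 296 exon bases with Gm17494 on the opposite strand, which was at 4 to 12 scaled counts, and 244 with the pseudogene Gm6061 on its own strand.

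Slc7a11, the subunit of the antiporter that brings in cystine for glutathione, stood at 320 and 342 (wt), 317 and 397 (mdx) and 303 and 322 (mdx/Ripk3mKO). Library 2 of mdx was the highest and the other 5 lay within a narrow band, so the groups overlapped. Its difference between mdx/Ripk3mKO and mdx was -0.18 ± 0.11 (limma, adjusted p = 0.563), and without mdx library 2 it was -0.02. Gsr, which regenerates reduced glutathione with NADPH, stood at 2424 and 2446 (wt), 2298 and 2228 (mdx) and 2384 and 2525 (mdx/Ripk3mKO). Both mdx libraries were below all others. The Gsr differences, -0.11 ± 0.06 for mdx against wt and 0.12 ± 0.06 for mdx/Ripk3mKO against mdx, did not pass (limma, adjusted p = 0.809 and 0.442). Hmox1 and Gsr were thus both lowest in the mdx libraries, and the size in Gsr was smaller.

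Neither gene of the thioredoxin branch passed a test. Txnrd1, which reduces cytosolic thioredoxin, stood at 9032 and 9511 (wt), 8880 and 9556 (mdx) and 9180 and 9652 (mdx/Ripk3mKO). In each group library 2 was the higher, and the spread inside a group exceeded the distance between group means. The 95% interval of the Txnrd1 difference was -0.12 to 0.11 for mdx against wt and -0.08 to 0.15 for mdx/Ripk3mKO against mdx. Srxn1, which repairs overoxidized peroxiredoxins, stood at 1186 and 1188 (wt), 1193 and 1351 (mdx) and 1313 and 1284 (mdx/Ripk3mKO). Both wt libraries were the lowest. Srxn1 stood 0.13 ± 0.07 higher in mdx/Ripk3mKO than in wt (95% interval -0.02 to 0.28, limma, adjusted p = 1) and 0.10 ± 0.07 above wt in mdx (limma, adjusted p = 0.845).

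Nqo1, the quinone reductase often used as a marker of Nrf2 activity, was the most variable of the 10 genes. It stood at 248 and 254 (wt), 207 and 289 (mdx) and 317 and 231 (mdx/Ripk3mKO), and the highest library was 1.53 times the lowest. The 2 wt libraries lay inside the range of each other group. The Nqo1 difference between mdx/Ripk3mKO and mdx was 0.15 ± 0.18, with a 95% interval of -0.26 to 0.56 (limma, adjusted p = 0.824). A difference of the size seen in Hmox1 lies inside that interval.

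**Figure D3:**
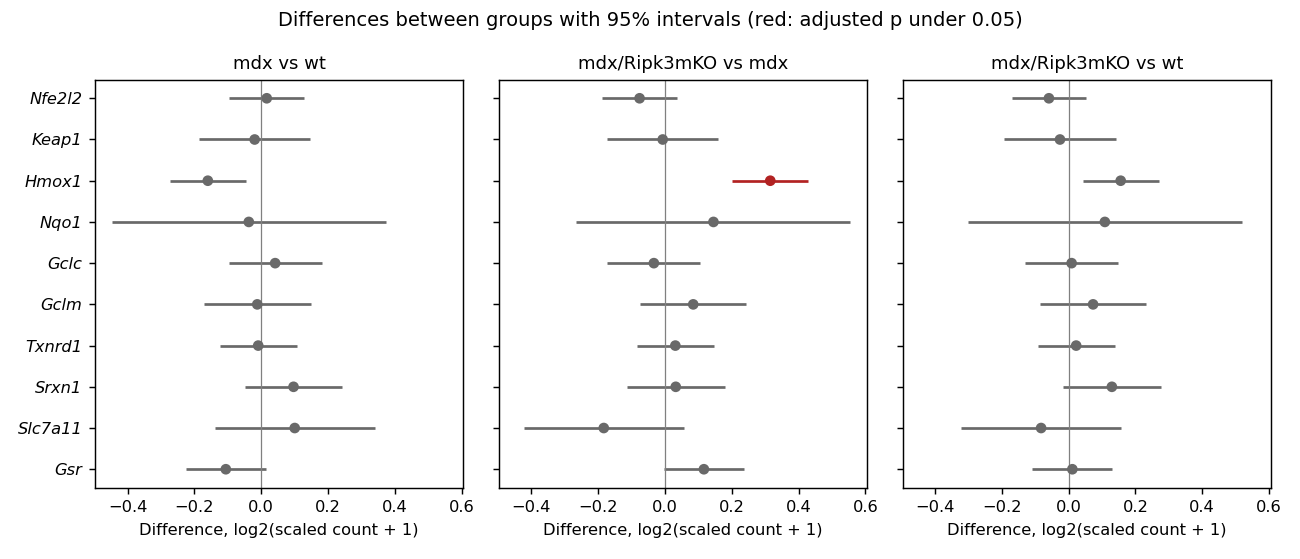
Differences in log2(scaled count + 1) between labelled groups (x axis) for the 10 genes (rows), with 95% intervals from limma; red marks an adjusted p under 0.05. Hmox1 in mdx/Ripk3mKO against mdx, at 0.32, is the sole red point, and the Nqo1 intervals are the widest.

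Counted together, 0 of the 10 genes passed in mdx against wt, where 0.00710% of tested genes did, and 0 passed in mdx/Ripk3mKO against wt, where 0% did (limma). In each of these 2 comparisons Hmox1 was the single gene with an unadjusted p under 0.05. That holds for 6.46% of tested genes in the first comparison and 3.32% in the second. Groups without overlap were seen for 3 of the 10 genes in each comparison. In mdx against wt these were Srxn1 on the higher side and Hmox1 and Gsr on the lower, where 35.9% of tested genes did not overlap (17.6% higher, 18.3% lower). In mdx/Ripk3mKO against mdx they were Hmox1 and Gsr on the higher side and Nfe2l2 on the lower, where 41.3% did not overlap (21.0% higher, 20.3% lower). In mdx/Ripk3mKO against wt they were Hmox1 and Srxn1 on the higher side and Nfe2l2 on the lower, where 29.4% did not overlap (14.4% higher, 15.1% lower). The share among the 10 was near that background each time. The median difference over the 10 genes was -0.01, 0.03 and 0.02 in the same order, and 0.00 over all tested genes in each. Without mdx library 1 the median of the 10 was 0.08 in mdx against wt and -0.05 in mdx/Ripk3mKO against mdx. Without mdx library 2 it was -0.06 and 0.09. It was 0.02 in mdx against wt without wt library 2, and -0.01 in mdx/Ripk3mKO against wt without mdx/Ripk3mKO library 2.

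For 6 of the 8 targets, all but Hmox1 and Gsr, the 2 mdx libraries lay farther apart than any 2 group means. The share of all tested genes with such a spread was not counted, so this count is not read as a trait of the targets. Of the 8 targets, 7 were higher in mdx library 2 than in library 1, where 48.8% of tested genes were, and the exception was Gsr. The log2 distance was 0.48 for Nqo1, 0.32 for Slc7a11, 0.24 for Gclm, 0.19 for Gclc, 0.18 for Srxn1, and 0.11 for both Hmox1 and Txnrd1. Were the values plain counts, counting error alone would give an SD of 0.13 for Nqo1, 0.11 for Slc7a11, 0.04 for both Gclm and Gclc, 0.06 for Srxn1, 0.03 for Hmox1 and 0.02 for Txnrd1, a floor that separate libraries usually exceed. The median absolute distance over the 10 genes was 0.14 between the mdx libraries, 0.05 between the wt libraries and 0.05 between the mdx/Ripk3mKO libraries. Over the 8821 tested genes with a mean of at least 200 scaled counts it was 0.07, 0.07 and 0.08.

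Library 1 of mdx was the lowest of all 6 for 5 of the 10 genes, Hmox1, Nqo1, Gclc, Gclm and Txnrd1, where it was the lowest for 18.7% of tested genes. Library 2 was the highest for 3, Gclc, Srxn1 and Slc7a11, against a share of 18.7%. In wt, library 2 was the higher for 8 of 8 targets, by a median of 0.05, where 48.9% of tested genes were higher in it. For Srxn1, Hmox1, Gsr, Nqo1 and Slc7a11 this wt distance was below the SD of counting error, and for Gclc, Gclm and Txnrd1 above it. In mdx/Ripk3mKO library 2 was the higher for 4 of 8, against 49.6%, and Nqo1 there ran the other way, at -0.46. What sets the mdx libraries apart was not tested, and this pattern was noticed after the values had been seen.

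**Figure D4:**
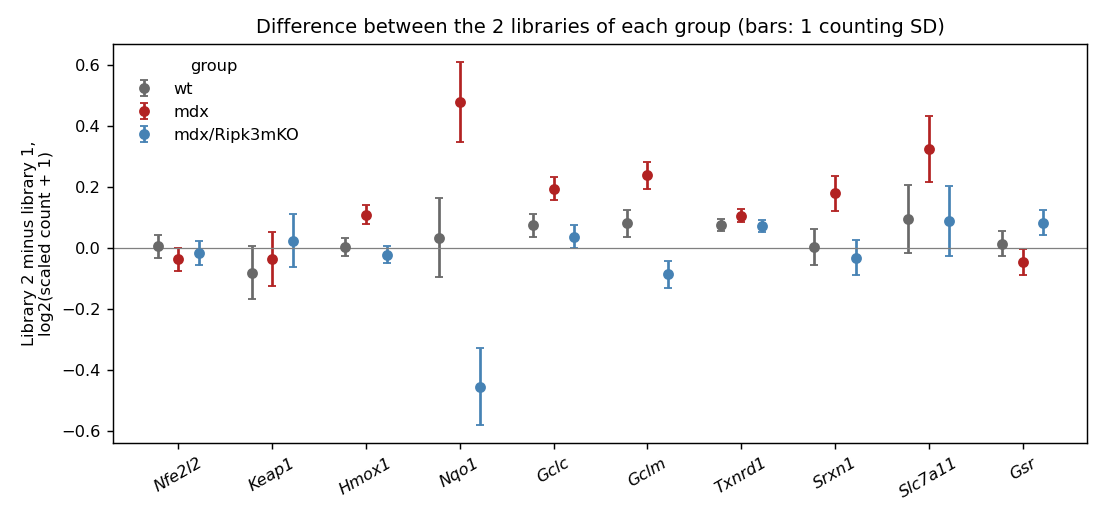
Library 2 minus library 1 in log2(scaled count + 1) (y axis) for each of the 10 genes (x axis) and labelled group; bars are 1 SD of counting error taken from the scaled counts. Of the mdx points 7 lie above 0, up to 0.48 for Nqo1, and the wt points lie between -0.08 and 0.10.

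Genes around the pathway gave no call in any comparison. Of 12 regulators and partners of Nrf2, 11 were tested and none passed, with 0 at an unadjusted p under 0.05 by limma in each comparison. Over all tested genes, 0.00710% passed in mdx against wt, 0.206% in mdx/Ripk3mKO against mdx and 0% in mdx/Ripk3mKO against wt. In the same order, 6.46%, 11.6% and 3.32% had an unadjusted limma p under 0.05. At such shares of calls, a list of this size without a call is not read as a result about its genes. Bach1, the repressor of Hmox1, stood at 1588 and 1471 (wt), 1629 and 1470 (mdx) and 1395 and 1527 (mdx/Ripk3mKO), with overlap between all groups and a difference of -0.08 ± 0.07 between mdx/Ripk3mKO and mdx (limma, adjusted p = 0.699). The small Maf partner Mafg stood at 1899 and 1887 (wt), 1899 and 1850 (mdx) and 1725 and 1817 (mdx/Ripk3mKO), where both libraries were the lowest (-0.08 ± 0.06 against mdx, limma, adjusted p = 0.627). The ligase scaffold Cul3 was at -0.04 ± 0.05 in that comparison. The median of the list was 0.02 in mdx against wt and -0.04 in mdx/Ripk3mKO against mdx, and -0.01 and 0.00 without mdx library 1.

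Heme and iron genes gave no call. Of 21 symbols 20 were tested, with 0 called in each comparison and 0, 1 and 3 at an unadjusted limma p under 0.05 in mdx against wt, mdx/Ripk3mKO against mdx, and mdx/Ripk3mKO against wt. The shares of all tested genes at that p were 6.46%, 11.6% and 3.32%. Alad, the enzyme of the second step of heme synthesis, stood at 341 and 339 (wt), 317 and 335 (mdx) and 392 and 426 (mdx/Ripk3mKO), the same order of groups as Hmox1. Its difference between mdx/Ripk3mKO and mdx was 0.33 ± 0.09 (limma, adjusted p = 0.191). Ferritin light chain Ftl1, which stores iron, was at 0.15 ± 0.07 in the same comparison, where the groups overlapped, although both mdx/Ripk3mKO libraries lay above both wt libraries. Hmox2, the constitutive heme oxygenase, stood at 476 and 447 (wt), 517 and 474 (mdx) and 505 and 427 (mdx/Ripk3mKO), with overlap throughout. Among the 20 genes 12 were higher in mdx/Ripk3mKO than in mdx (median 0.04), as were 6925 of 14077 tested genes (median 0.00). The median of the 20 was -0.02 without mdx library 1, 0.00 without mdx/Ripk3mKO library 1 and 0.08 without mdx/Ripk3mKO library 2.

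The other Nrf2 targets, enzymes of NADPH supply and detoxification, were all 21 tested and none passed, with 1, 0 and 1 at an unadjusted limma p under 0.05 in the same order of comparisons. Of these 16 were higher in mdx/Ripk3mKO than in mdx (median 0.06, or 0.03 with GC content and exon length regressed out), where 6925 of 14077 tested genes were higher. The median was -0.02 without mdx library 1. The largest difference was on the lower side, the aldehyde oxidase Aox1 at -0.36 ± 0.17. The next largest were higher, among them the carbonyl reductase Cbr3 at 0.28 ± 0.18 and the glutathione transferase Gsta4 at 0.25 ± 0.14. Of 24 genes for glutathione, thioredoxin and peroxide removal none passed, with 1, 2 and 1 at an unadjusted limma p under 0.05. For both lists the shares of all tested genes at that p were 6.46%, 11.6% and 3.32%. The glutathione peroxidase Gpx1 was at 0.17 ± 0.06 in mdx/Ripk3mKO against mdx (limma, adjusted p = 0.313) and thioredoxin Txn1 at 0.11 ± 0.05 (adjusted p = 0.417). Txn1 stood at 6786 and 6638 (wt), 6197 and 6473 (mdx) and 6810 and 6848 (mdx/Ripk3mKO), the order of groups seen in Hmox1. Txnip, which binds and inhibits thioredoxin, was at 0.54 ± 0.22 in mdx against wt (limma, adjusted p = 0.7). In mdx/Ripk3mKO against mdx it was at -0.40 ± 0.22 (limma, adjusted p = 0.497), on 47 to 79 scaled counts.

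**Figure D5:**
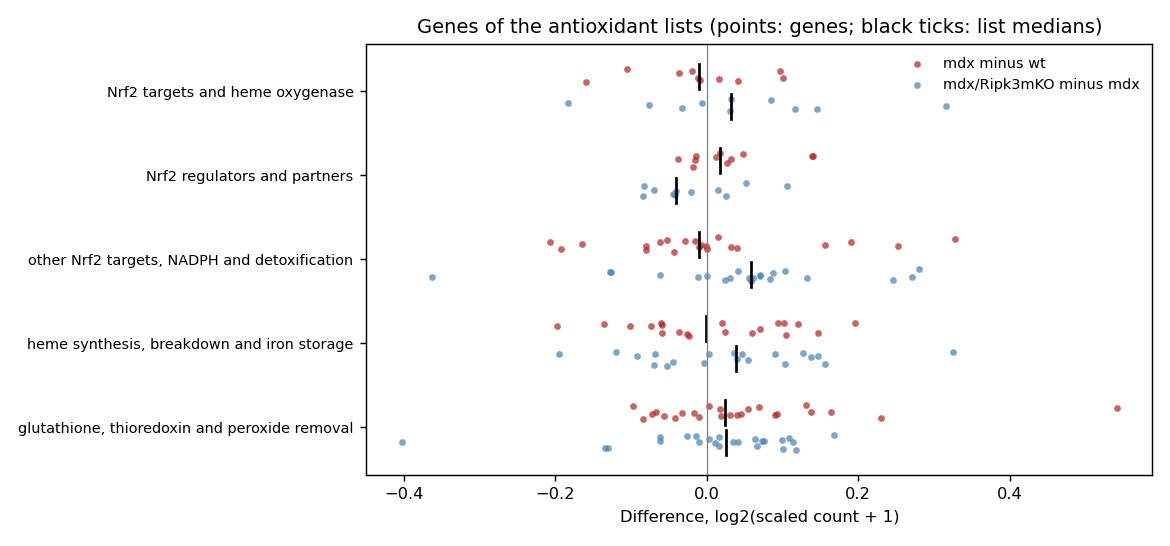
Differences in log2(scaled count + 1) (x axis) for the genes of the 5 lists (rows), in mdx minus wt and mdx/Ripk3mKO minus mdx; each point is a gene and black ticks are list medians. All medians lie between -0.04 and 0.06, and Hmox1, at 0.32 in the top row, stands beyond the other genes of its list.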

How the data were processed

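RNA was sequenced in 6 libraries, a pair for each labelled genotype, made with version 2 of a Takara SMARTer stranded total RNA kit for low input, per the labels' protocols. The authors deposited a score per gene: a read count brought to a common library scale and then rounded. This reading rests on the values, since median-of-ratios size factors lay between 1.00190 and 1.00229 and whole numbers were skipped or doubled at regular steps. Tools listed without roles are DESeq2 1.18.1, featureCounts 1.6.3, STAR 2.6.1d and Trimmomatic 0.36, with the build mm10, per the submitters' processing notes. Strand setting and annotation are not given in the sources used here.

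A gene was tested if 2 or more libraries held 10 or more scaled counts, which left 14077 of 14515. limma 3.58.1 (R 4.3.3, statmod 1.5.0) was fitted to log2(scaled count + 1) over all 6 libraries with genotype as the term, 3 residual degrees of freedom, a variance trend and robust moderation. P-values were adjusted by Benjamini-Hochberg over all tested genes, threshold 0.05. Fold changes are on that scale, which understates low genes. The fit was also run on simulated negative binomial counts with a common dispersion for all genes, unlike the rounded scaled values here. No result above rests on that run. Alternatives varied the pseudocount, filter, scaling, moderation, groups fitted, GC and length correction, and each library. Exon length and GC content came from GENCODE M21, with values for 99.9% of genes. The 10 genes and the lists were chosen with earlier results of these data known. Named are the 10 genes, and per list up to 4 genes with the smallest p in a comparison; Hmox2 and the context genes were added. A result for a gene of the heme list is not reported here.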

Additional observations from a re-analysis of the deposited data

How the results depend on the processing

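Calls were few and moved with the setting. In mdx/Ripk3mKO against mdx, 29 genes were called, Hmox1 alone among the 10. The counts were 18 with a minimum of 50 scaled counts, 8 with GC content and exon length regressed out, 2 with only the compared groups fitted, and 1 without variance trend and robust fitting, and 0 of the 10 genes were called in the last 3 or under quantile normalization. Hmox1 itself was then at 0.28, 0.32, 0.32 and 0.29, and the cause was not tested. Leaving out each library gave 1 to 278 genes and 0 to 1 of the 10, with 1 gene without mdx library 2 and 278 without mdx/Ripk3mKO library 1. In mdx against wt, 1 gene was called, 103 with only those groups fitted, and 0 to 103 with a library left out. In mdx/Ripk3mKO against wt, 0 were called, and 0 to 20 with a library left out. With 2 libraries a group and 3 residual degrees of freedom, small differences could not be separated from the spread.

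Differences near 0 changed sign. With GC content and exon length regressed out, Keap1 was 0.02 in mdx against wt, Srxn1 -0.01 and Cul3 0.02 in mdx/Ripk3mKO against mdx, and Gsr -0.01 in mdx/Ripk3mKO against wt. Relative to library totals, Gclc and Gsr were 0 in mdx/Ripk3mKO against wt. With each library left out in turn, mdx against wt ranged from 0 to 0.04 for Nfe2l2, -0.06 to 0.02 for Keap1, -0.28 to 0.20 for Nqo1, -0.05 to 0.14 for Gclc, -0.13 to 0.11 for Gclm, -0.06 to 0.04 for Txnrd1, -0.06 to 0.26 for Slc7a11, 0 to 0.28 for Bach2 and -0.01 to 0.06 for Cul3. In mdx/Ripk3mKO against mdx it ranged from -0.03 to 0.01 for Keap1, 0.26 to 0.37 for Hmox1, -0.09 to 0.38 for Nqo1, -0.13 to 0.06 for Gclc, -0.03 to 0.20 for Gclm, -0.02 to 0.08 for Txnrd1, -0.06 to 0.12 for Srxn1 and -0.01 to 0.22 for Mafk. In mdx/Ripk3mKO against wt it ranged from -0.07 to 0.01 for Keap1, -0.12 to 0.34 for Nqo1, -0.03 to 0.05 for Gclc, -0.01 to 0.06 for Txnrd1 and -0.03 to 0.05 for Gsr.

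A replicate block was possible for mdx/Ripk3mKO against wt only, since the mdx columns carry no separate numbers. It called 0 genes and left Hmox1 at 0.16 (limma, adjusted p = 1). Deviations of same-numbered libraries had a correlation of -0.01 across genes. That value shows no shared deviation over all genes, but cannot tell whether same-numbered libraries share an animal or a batch.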

Other observations

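Across the 6 libraries, the Hmox1 profile lay closest to those of Ckap4, Abhd17a, Mgat2, Mrpl14 and Med24, the 5 genes with the highest Pearson r on log2(scaled count + 1), at 0.99, 0.99, 0.99, 0.98 and 0.98. They were chosen from 9708 genes with a mean of at least 100 scaled counts, 225 of which had r of at least 0.9. None of the 5 was called in mdx/Ripk3mKO against mdx (limma), with differences of 0.08, 0.22, 0.12, 0.28 and 0.15. Among all pairs of the 10 genes, r ran from -0.93 for Hmox1 with Nfe2l2 to 0.90 for Gclc with Slc7a11. It was 0.89 for Nqo1 with Gclm and 0.71 for Hmox1 with Gsr. The highest library of Nfe2l2 was only 1.07 times its lowest, and the share of genes with so low an r to Hmox1 was not counted. These r values describe 6 libraries that share 3 groups, and no p is attached.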
